A study of Homo sapiens with 12 samples.

Results

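The interleukin 1 family and its receptors were examined in T24 cells, a human bladder cancer line, as 8 genes taken by name from the deposited gene tables. The genes were the ligand genes IL1A, IL1B, IL18 and IL33, the antagonist gene IL1RN, and the receptor genes IL1R1, IL1RL1 and IL1RAP, which are 8 of the 60504 genes listed in each of 12 RNA-seq libraries. The study asked how the level of U11, a small nuclear RNA of the minor spliceosome, alters the transcripts of these cells. In the knockout comparison, 2 libraries labelled U11 knockout were set against 2 control libraries of T24 cells labelled untreated. The knockout cells were a monoclonal line made with Cas9 and a pair of guide RNAs carried on pX330. In the overexpression comparison, 6 libraries labelled U11 overexpression were set against 2 control libraries, also labelled untreated. Titles of the overexpression libraries give 3 line labels, 79, 86 and 87, each on 2 libraries, without a description of how the lines differ. Overexpression was from the plasmid pcDNA-U11 with selection of single clones. All cells were kept in F12 medium. The labels do not say that libraries of a group came from separate cultures, so each P value measures only the spread between these libraries.

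Interleukin 1 alpha and interleukin 1 beta, the products of IL1A and IL1B, both bind the receptor encoded by IL1R1. The bound receptor recruits the accessory protein encoded by IL1RAP, and the joined intracellular domains pass the signal through MYD88 and the IRAK kinases to NF-kappa B and AP-1, which switch on chemokine and cytokine genes. IL1RN encodes an antagonist that occupies IL1R1 without recruiting the accessory protein. IL-33 uses the same accessory protein together with ST2, the product of IL1RL1, while IL-18 has a receptor pair of its own. Interleukin 1 beta and IL-18 are made as precursors that caspase-1 cuts, whereas interleukin 1 alpha and IL-33 can also reside in the nucleus, and epithelial cells are a known source of interleukin 1 alpha, IL-18 and IL-33.

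In hg38, the build of the deposited tables, IL1A (ENSG00000115008, chr2:112773915-112784590, minus strand) and IL1B (ENSG00000125538, chr2:112829751-112836903, minus strand) are neighbours, and IL1RN (ENSG00000136689, chr2:113107214-113134016, plus strand) lies on the far side of IL1B. IL1R1 (ENSG00000115594, chr2:102064544-102179874, plus strand) and IL1RL1 (ENSG00000115602, chr2:102311502-102352037, plus strand) lie in a separate receptor cluster of chromosome 2. IL33 (ENSG00000137033, chr9:6215786-6257983, plus strand), IL18 (ENSG00000150782, chr11:112143251-112164117, minus strand) and IL1RAP (ENSG00000196083, chr3:190514051-190659750, plus strand) are each on another chromosome. The 250 bases before the transcription start are shown for IL1A and IL1B, which rose and fell together, and for IL33, which went the other way where it was called. The sequences are from RefSeq (GRCh38.p14), are written 5′ to 3′ on the strand of the gene, and use the annotated start nearest to the edge of the deposited gene. The IL1A window is chr2:112784494-112784743, the IL1B window is chr2:112836780-112837029 and the IL33 window is chr9:6215557-6215806.
IL1A: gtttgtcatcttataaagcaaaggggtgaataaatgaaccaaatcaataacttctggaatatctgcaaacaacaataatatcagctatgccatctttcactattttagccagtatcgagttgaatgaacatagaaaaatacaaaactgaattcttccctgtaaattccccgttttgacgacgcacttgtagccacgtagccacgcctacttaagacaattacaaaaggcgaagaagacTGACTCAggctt
IL1B: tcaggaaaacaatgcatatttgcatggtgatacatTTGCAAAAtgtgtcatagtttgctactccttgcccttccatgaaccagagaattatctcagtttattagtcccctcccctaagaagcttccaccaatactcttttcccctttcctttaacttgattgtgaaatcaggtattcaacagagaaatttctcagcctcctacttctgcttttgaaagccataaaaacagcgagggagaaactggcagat
IL33: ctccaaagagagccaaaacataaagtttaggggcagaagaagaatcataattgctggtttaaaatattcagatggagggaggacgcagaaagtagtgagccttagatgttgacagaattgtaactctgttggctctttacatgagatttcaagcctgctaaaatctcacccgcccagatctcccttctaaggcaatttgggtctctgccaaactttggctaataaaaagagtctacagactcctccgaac
Capitals mark matches, on either strand, to TGANTCA (the AP-1 motif) or to TTGCNNAA (the C/EBP motif). The IL1A window held an AP-1 match, TGACTCA, from 12 to 6 bases before the start. The IL1B window held a C/EBP match, TTGCAAAA, from 215 to 208 bases before the start. No match to these letters lay in the IL33 window. Of 35116 annotated promoter windows of the same length, 6.57% held the AP-1 letters and 9.05% the C/EBP letters.

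Expression was given as TPM, a share of all transcripts scaled for gene length and library size. U11 itself, summed over its 2 listed entries, stood at 31.6 and 37.4 TPM with the knockout label against 21.4 and 23.8 TPM in the respective controls, so the knockout label did not go with a lower U11 value in these tables. These libraries are therefore named by their label, and the directions given for this comparison are those of the labels. In the overexpression comparison U11 was at 0.03 and 0.62 TPM in the controls, 0.18 and 0.41 under line label 79, 3.98 and 3.72 under 86, and 61.9 and 53.6 under 87, so line label 79 lay between its controls. U11 in untreated T24 cells thus differed widely between the comparisons. The sources also differ on whether the libraries held polyA RNA or RNA depleted of ribosomal RNA. How far these values reflect the U11 level of the cells was not tested. The libraries held 9.07 to 15.33 gigabases of aligned sequence as reckoned from the deposited coverage, and the comparisons were kept apart because their titles and the U11 values place them in separate sets of libraries. Epithelial markers (KRT7, KRT8, KRT18, KRT19 and EPCAM) summed to 1817 to 8931 TPM over the libraries, nearly all from the keratins. Markers of monocytes and macrophages, which are strong sources of interleukin 1 beta elsewhere, summed to 0.222 to 1.55 TPM in the 4 libraries whose titles share the prefix R17018, to 2.98 to 3.91 TPM in the 4 with the prefix R18019, and to 0.634 to 0.882 TPM in the knockout comparison. T cell markers summed to 0 to 0.348 TPM in R17018 and to 2.16 to 3.1 TPM in R18019, and fibroblast markers stayed at or below 0.365 TPM. Each of these title sets held 1 control library and 1 library of each line label, and values within each set are given below.

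Among the ligands, IL18 and IL1B were the most abundant transcripts on the TPM scale, IL1A was lower, and IL33 was near 0 in most libraries. IL1RAP was the receptor transcript found at several TPM in every library, whereas IL1R1 exceeded 1 TPM in 4 libraries. IL1RN and IL1RL1 did not reach 1 TPM in any library.

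**Figure D1:**
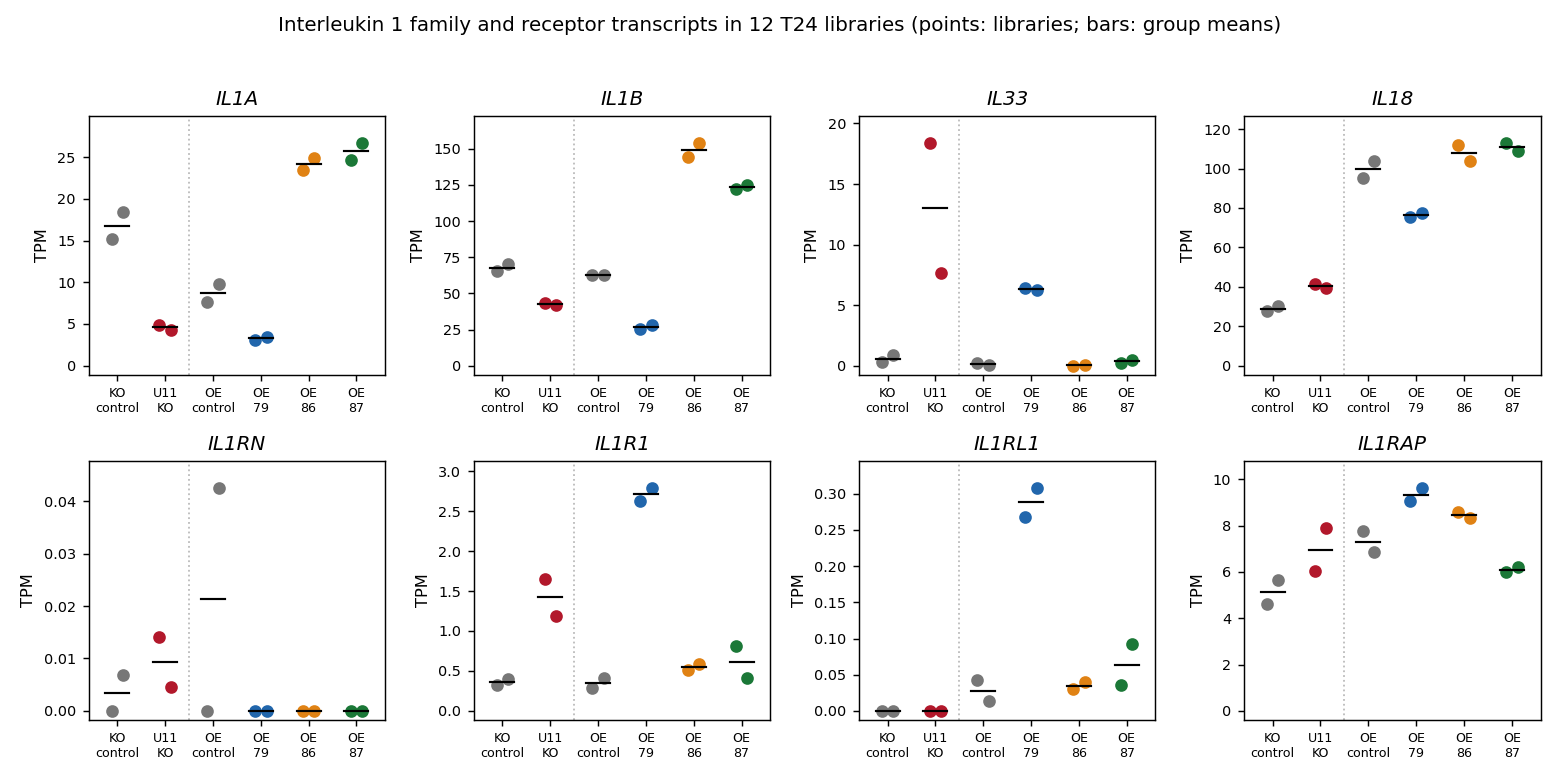
TPM of the 8 genes in the 12 libraries. Each point is a library, each black bar a group mean of 2 libraries, and the dotted line separates the knockout comparison from the overexpression comparison. IL1A and IL1B were lower than in controls in the U11 knockout group and under line label 79 and higher under line labels 86 and 87, while IL33 was at 6.27 TPM or more in the U11 knockout group and under line label 79 and at 0.849 TPM or less elsewhere.

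The libraries labelled U11 knockout had down-regulated IL1A and IL1B and up-regulated IL33 and IL1R1. IL1A, the gene of interleukin 1 alpha, was at 4.91 and 4.28 TPM in these libraries against 15.2 and 18.4 TPM in the controls. The 2 groups did not overlap, and the log2 fold change of TPM + 1 was -1.67 (SE 0.15, limma adjusted P = 0.0131). IL1B was at 43.3 and 41.8 TPM against 65.2 and 70.3 TPM. Its fall was smaller, with a log2 fold change of -0.66 (SE 0.09, limma adjusted P = 0.0285), just past the 1.5-fold limit of the study. The ratio of IL1B to IL1A accordingly stood at 8.82 and 9.76 in the libraries labelled knockout and at 4.29 and 3.82 in the controls.

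IL33, which encodes a nuclear cytokine released from damaged cells, was at 18.4 and 7.62 TPM under the knockout label and at 0.29 and 0.849 TPM in the controls. Both knockout values were above both controls, but they were far apart from each other, and the log2 fold change was 3.07 (SE 0.43, limma adjusted P = 0.0278). The mean read depth over the gene was 147 and 59.5 in the libraries labelled knockout and 2.43 and 6.81 in the controls. IL18 was at 41.2 and 39.2 TPM against 27.6 and 30.4 TPM. The IL18 values did not overlap, yet its log2 fold change of 0.46 (SE 0.10, limma adjusted P = 0.064) was under 1.5-fold.

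Of the receptors, IL1R1 was at 1.65 and 1.19 TPM under the knockout label and at 0.318 and 0.395 TPM in the controls. The log2 fold change was 0.83 (SE 0.15, limma adjusted P = 0.0448), at a read depth of at most 0.607 over the gene. IL1RAP, the shared accessory subunit, was at 6.04 and 7.89 TPM against 4.6 and 5.67 TPM. Its log2 fold change of 0.37 (SE 0.18, limma adjusted P = 0.232) did not pass the test. IL1RL1 was listed at 0 in all 4 libraries, and IL1RN was at no more than 0.014 TPM in them.

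Of the 8 genes, 6 passed the minimum of 1 TPM in 2 libraries and 4 were called by the thresholds of the study (unadjusted P under 0.05 and at least 1.5-fold), whereas 11.8% of all 14356 genes tested were called. IL33 and IL1R1 passed that minimum only through the libraries in which they were high, so their calls carry no weight as a share. All genes tested had a median log2 fold change of 0.108 in this comparison, which became 0.012 after median ratio scaling. Of the genes called, 1236 were higher and 452 lower, and 810 and 674 after that scaling. The 4 calls of members held under median ratio scaling and quantile normalization. Of the endothelial markers, CDH5 moved with this label, at 0.0316 and 0.0293 TPM against 4.85 and 4.75 TPM. KIT, of the mast cell markers, was also higher, with the mast cell list summing to 1.03 to 1.14 TPM against 0.156 to 0.216 TPM. Their part in the results was not tested.

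**Figure D2:**
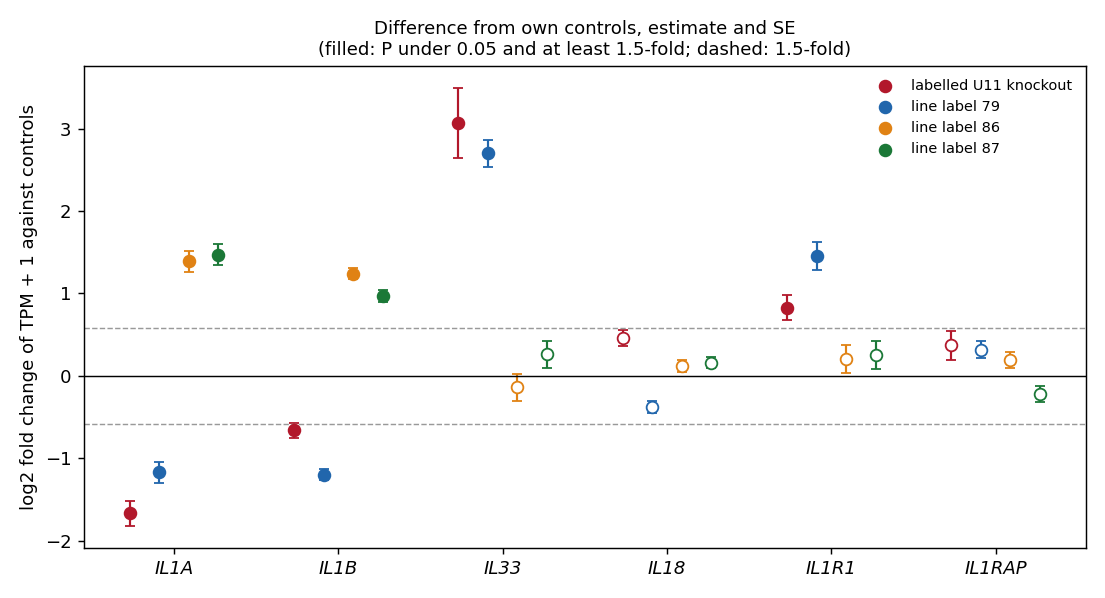
Log2 fold change of TPM + 1 against own controls, with its SE, for the 6 genes that could be tested, in the libraries labelled U11 knockout and under line labels 79, 86 and 87. Filled points passed P under 0.05 with at least 1.5-fold. IL1A ran from -1.67 in the libraries labelled knockout to 1.47 under line label 87, and IL33 was above 2 only in the knockout comparison and under line label 79.

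With the 6 overexpression libraries taken as a single group, none of the 8 genes was called, against 1.93% of the 15768 genes tested, and 0 had an unadjusted P under 0.05 by limma. IL1A ran from 3.11 to 26.7 TPM across these 6 libraries with a median of 24.1, and the 2 controls at 7.64 and 9.74 TPM lay inside that range. Its log2 fold change was 0.56 with an SE of 0.83 (limma adjusted P = 0.949). IL1B ran from 25.3 to 154 TPM with a median of 123 around controls at 62.4 and 62.7 TPM, and its log2 fold change was 0.34 (SE 0.74, limma adjusted P = 0.972). IL33 (0.94, SE 0.86), IL1R1 (0.63, SE 0.42), IL1RAP (0.09, SE 0.18) and IL18 (-0.03, SE 0.18) did not pass either. IL1A and IL1B differed in direction between line labels, and their SEs were correspondingly large. Without line label 79, an alternative chosen after seeing the data, IL1A and IL1B were both called higher, at log2 fold changes of 1.43 and 1.10. Both were lower than in controls under the label left out, so these calls follow from that choice.

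Under line label 79, the pattern was that of lower IL1A and IL1B with higher IL33 and IL1R1. IL1A was at 3.11 and 3.46 TPM against 7.64 and 9.74 TPM in the controls, a log2 fold change of -1.17 (SE 0.13, limma adjusted P = 0.0037). IL1B was at 25.3 and 27.9 TPM against 62.4 and 62.7 TPM, a log2 fold change of -1.20 (SE 0.07, limma adjusted P = 4.84e-04). Neither gene overlapped its controls. Within the title sets R17018 and R18019 the log2 difference of IL1A was -1.07 and -1.27, and that of IL1B was -1.27 and -1.14.

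IL33 was at 6.44 and 6.27 TPM under line label 79 and at 0.218 and 0.053 TPM in the controls. The rise was 2.70 on the log2 scale (SE 0.16, limma adjusted P = 4.71e-04), with 2.61 and 2.79 in the 2 title sets, and the read depth over the gene was 23.2 and 30.5 against 0.632 and 0.23. IL1R1 was at 2.63 and 2.79 TPM against 0.29 and 0.408 TPM. Its log2 fold change was 1.46 (SE 0.17, limma adjusted P = 0.00493), with 1.49 and 1.43 in the title sets, at a read depth of at most 0.547. As in the knockout comparison, IL33 and IL1R1 reached 1 TPM only in the libraries in which they were high. IL18 was at 75.2 and 77.2 TPM against 95.2 and 104 TPM, a difference of less than 1.5-fold (log2 fold change -0.38, SE 0.07, limma adjusted P = 0.0278). IL1RAP was at 9.06 and 9.62 TPM against 7.75 and 6.86 TPM, with a log2 fold change of 0.32 (limma adjusted P = 0.099). Of the 8 genes, 4 were called under line label 79, where 7.95% of all genes tested were (383 higher and 871 lower, or 519 and 688 after quantile normalization).

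The same endothelial marker, CDH5, was at 34.1 and 32.2 TPM under line label 79 against 3.43 and 3.08 TPM in the controls. The other endothelial markers (PECAM1, VWF and CLDN5) did not reach 1 TPM in any library, and the list summed to 32.5 to 34.4 TPM there against 3.25 to 5.55 TPM in the other 6 libraries. The part of CDH5 in the IL33 and IL1R1 values was not tested.

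Line labels 86 and 87 gave the opposite direction for both interleukin 1 genes. Under line label 86, IL1A was at 23.5 and 24.9 TPM and IL1B at 144 and 154 TPM, all above the controls. The log2 fold changes were 1.39 for IL1A (SE 0.13, limma adjusted P = 0.006) and 1.24 for IL1B (SE 0.07, limma adjusted P = 0.00201). Under line label 87, IL1A was at 24.7 and 26.7 TPM and IL1B at 122 and 125 TPM, again all above the controls. The log2 fold changes were 1.47 (SE 0.13, limma adjusted P = 0.00303) and 0.97 (SE 0.07, limma adjusted P = 0.00187). IL1A and IL1B were the only 2 of the 8 genes called under either label, where 3.6% of all genes tested were called under 86 and 5.13% under 87. Within the title sets the IL1A difference was 1.5 and 1.27 under 86 and 1.57 and 1.37 under 87, and that of IL1B was 1.2 and 1.29 under 86 and 0.95 and 0.98 under 87.

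The other genes stayed near their controls under these labels. IL33 was at 0 and 0.0531 TPM under 86 and at 0.239 and 0.487 TPM under 87. IL18 was at 112 and 104 TPM under 86 and at 113 and 109 TPM under 87, and IL1R1 ran from 0.41 to 0.812 TPM over these 4 libraries. Their log2 fold changes lay between -0.14 and 0.26, with limma adjusted P from 0.339 to 0.78. IL1RAP was at 8.6 and 8.32 TPM under 86 (log2 fold change 0.19, limma adjusted P = 0.478) and at 6 and 6.2 TPM under 87 (-0.22, limma adjusted P = 0.297).

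Since the 3 line labels share their controls, the lines were also compared with each other. The F test of limma over the line labels passed at an adjusted P under 0.05 for IL1A, IL1B, IL18 and IL1RAP, against 16% of the 15768 genes tested. IL33 and IL1R1 passed as well but could be tested only through the libraries of line label 79, where they were high. Without replicate 1 or replicate 3 of line label 79, 2 and 3 of the members passed, and the genes called fell from 2530 to 1222 and 1298. IL1A was 2.64 lower on the log2 scale under 79 than under 87, with group means of 3.29 ± 0.248 and 25.7 ± 1.42 TPM (SD, n = 2 libraries each; the limma adjusted P of the F test was 2.04e-04). IL1B was 2.44 lower under 79 than under 86, with means of 26.6 ± 1.81 and 149 ± 7.16 TPM (SD, n = 2 libraries each; the limma adjusted P was 6.66e-05). In order of level, IL1A ran from line label 79 through the controls to 86 and then 87, and IL1B from 79 through the controls to 87 and then 86. IL1A did not differ between 86 and 87 beyond its spread (log2 difference -0.08, SE 0.13, limma adjusted P = 0.777). For IL1B the difference of 0.27 between 86 and 87 (SE 0.07, limma adjusted P = 0.0947) did not pass either.

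IL33 was 2.84 higher under 79 than under 86 on the log2 scale, and IL1R1 was 1.26 higher. The remaining differences were smaller. IL18 was 0.54 lower under 79 than under 87, and IL1RAP was 0.54 higher under 79 than under 87, both under 1.5-fold. In order of level IL1RAP ran from 87 through the controls and 86 to 79, and its difference of 0.41 between 86 and 87 had a limma adjusted P of 0.0604.

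The ratio of IL1B to IL1A was 8.16 and 6.44 in the controls, 8.15 and 8.06 under 79, 6.14 and 6.19 under 86, and 4.93 and 4.68 under 87. The ratio under 87 was thus below that of every other library of this comparison, while under 79 it lay within the control range, where both genes had fallen.

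The 2 members that never reached 1 TPM could not be tested. IL1RN, the antagonist gene, was above 0 in 4 libraries, at 0.014 TPM or less in the knockout comparison and at 0.0425 TPM in a single overexpression control. IL1RL1 was at 0.268 and 0.308 TPM under line label 79 and at 0.014 to 0.0919 TPM in the other overexpression libraries. IL1RL1 overlaps IL18R1 on the same strand, and reads of the shared stretch cannot be assigned to either gene with certainty. IL18R1, a subunit of the IL-18 receptor, was at 1.14 and 1.85 TPM under line label 79 and at no more than 0.355 TPM in the other 10 libraries, a log2 fold change of 1.22 against controls (SE 0.19, limma adjusted P = 0.0123). Like IL33 and IL1R1, IL18R1 met the minimum only through the libraries of line label 79. IL1R2, IL1RL2 and IL18RAP of the same cluster stayed at or below 0.286 TPM in every library, a trace level that IL1RL1 did not clearly exceed. The flanking genes MAP4K4, MFSD9 and TMEM182 were not called under line label 79.

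Genes next to IL1A and IL1B were examined in the same way, by a rule chosen after their values had been seen. The rule took genes within 3000000 bases of either gene that had a mean of at least 5 TPM over the overexpression libraries. On the side of IL1A, 14 of 17 genes had a negative log2 fold change under line label 79, with a median of -0.47 and a range from -0.87 to 0.77, and 6 of the 17 were called, against 7.95% of all genes. The calls were BUB1 (-0.71), TMEM87B (-0.79), TTL (-0.67), CHCHD5 (-0.67) and CKAP2L (-0.87), which were lower, and MALL (0.77), which was higher. The values below 0 ran without a gap over the 11 genes from BUB1 to CKAP2L (chr2:110637698-112764677), at -0.87 to -0.25, but that stretch was set by the values themselves and its count is a description. On the far side of IL1B, 8 of 9 genes had a negative value, with a median of -0.17, and none was called. The far side was not particular to line label 79 by sign. Under 87 it also had 8 of 9 negative values (median -0.08), under 86 it had 6 (-0.09), and under the knockout label 4 (0.04). None of the 17 genes was called under 86, 87 or the knockout label, and their medians there were 0.11, -0.02 and 0.29. By sign, 7, 10 and 0 of the 17 were negative there. RGPD5, RGPD6 and RGPD8 among these genes belong to a family of near-identical copies whose counts are uncertain. The falls of IL1A (-1.17) and IL1B (-1.20) were larger than that of any of these neighbours, and the part of the neighbouring decrease in them was not tested.

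**Figure D3:**
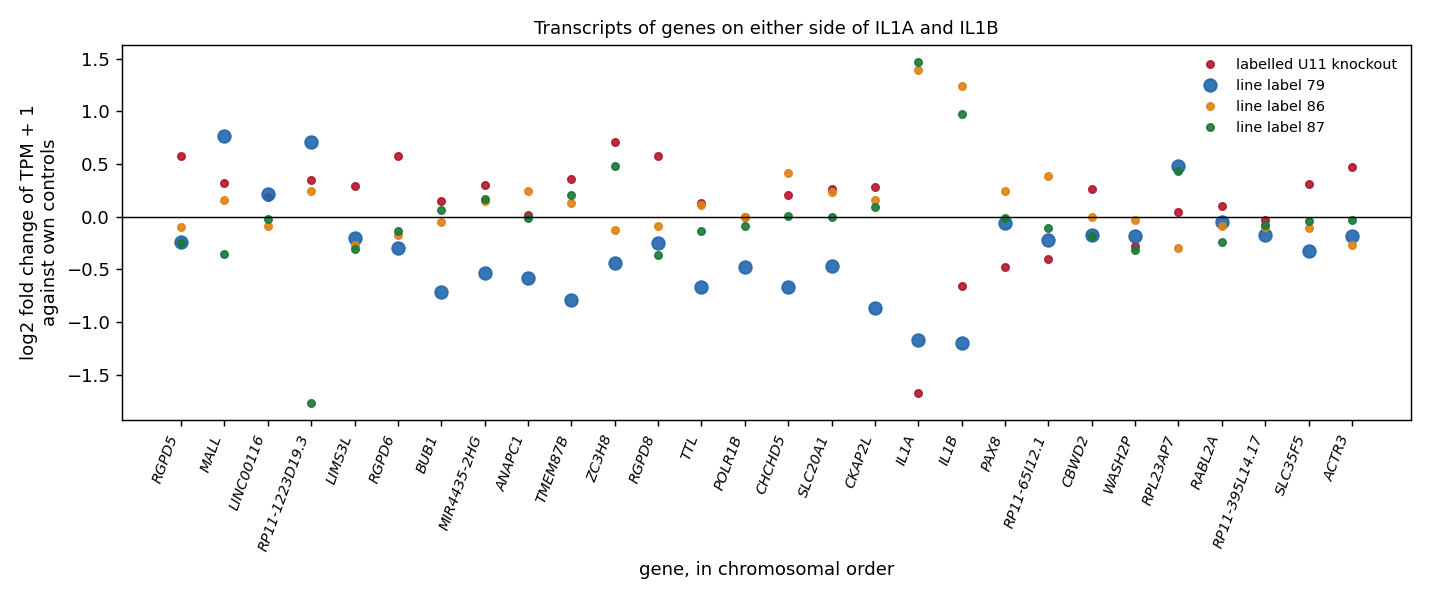
Log2 fold change of TPM + 1 against own controls for the genes on either side of IL1A and IL1B, in chromosomal order from left to right, for the libraries labelled U11 knockout and line labels 79, 86 and 87. Large blue points, for line label 79, lie below 0 for every gene from BUB1 to IL1B, whereas the red points of the knockout label are lowest at IL1A and IL1B.

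Over the 8 overexpression libraries, the 3 genes whose pattern was most like that of a member were found among 11937 genes by the mean absolute difference of centred log2(TPM + 1), for members that reached 5 TPM and a range of 1. The gene most like IL1A was IL1B (mean difference 0.17), followed by SEL1L3 (0.18) and HAS2 (0.24), a hyaluronan synthase gene. The gene most like IL1B was SEL1L3 (0.10), at 1.91 and 2.06 TPM under line label 79, 6.57 and 7.6 TPM in the controls and 13.9 to 17.4 TPM under 86 and 87. IL1A (0.17) and the listed transcript RP11-284F21.7 (0.21) came next. Most like IL33 were TIE1 (0.17), an endothelial receptor kinase gene, CDH5 (0.21) and SMR3B (0.32). IL33 reached 5 TPM only under line label 79, so genes high under that label alone must rank as like it. In the knockout comparison, which the likeness leaves out, CDH5 was lower (log2 fold change -2.49) where IL33 was higher (3.07). IL1A and IL1B themselves ranked 11893 and 11888 of the 11937 genes in likeness to IL33, a rank that also grows with the range of a gene. IL1A and IL1B were on the other side of the controls from IL33 under line label 79, while under 86 and 87 IL33 was not called. The likeness is a description over 8 libraries that share their controls.

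The rest of the pathway was taken from lists of known genes. The other ligand genes of the family (IL36A, IL36B, IL36G, IL36RN, IL37 and IL1F10) did not reach the minimum, and 0 of 6 could be tested. Of 8 other receptor and binding protein genes, 1 could be tested in the knockout comparison and 3 in the overexpression comparison. IL18R1 was called higher under line label 79, and SIGIRR, which encodes an inhibitory receptor, was called lower in the libraries labelled U11 knockout (log2 fold change -0.69, limma adjusted P = 0.121). IL18BP, which encodes the soluble inhibitor of IL-18, was at 5.49 and 6.69 TPM in the overexpression controls and at 2.4 to 6.24 TPM under the line labels. It was not called against the controls. Between line labels it was 0.73 higher under 79 than under 86 on the log2 scale, which met the thresholds of the study (limma adjusted P = 0.179).

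Of 14 genes that carry the signal from the receptor, 12 could be tested in the knockout comparison, and 3 were called there, where 11.8% of all genes were, namely MAP3K7, the kinase TAK1 (0.81), IRAK2 (-0.59) and the ubiquitin ligase gene PELI1 (-0.61). Of these, IRAK2 also passed an adjusted P under 0.05 (limma, 0.0475). None was called with the overexpression libraries pooled. IRAK3, which encodes an inhibitory member of the IRAK family, was higher under line label 79 (log2 fold change 0.64, limma adjusted P = 0.0529) and lower under 87 (-1.05, limma adjusted P = 0.0224), where PELI2 was lower as well (-1.06). In the knockout comparison IRAK3 did not meet the minimum and was not tested, at 0.00342 and 0.00589 TPM against 0.527 and 0.716 TPM. MYD88, the adaptor that starts the pathway, was not called in any of these comparisons. The median of the signal genes was -0.05 in the knockout comparison and between -0.02 and 0.07 in the overexpression comparisons, against 0.11 and between -0.03 and 0.01 over all genes.

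Of 17 genes of precursor cleavage and release, 12 could be tested. CASP1, the enzyme that cuts the precursors of interleukin 1 beta and IL-18, differed between the line labels. CASP1 was at 3.88 and 5.17 TPM under 79, 10.5 and 12 TPM in the controls, 7.4 and 7.51 TPM under 86, and 26.2 and 27.9 TPM under 87. It was thus lower under 79 (log2 fold change -1.16, limma adjusted P = 0.00478) and higher under 87 (1.2, limma adjusted P = 0.00768). Under 86, where IL1B was at its highest, CASP1 was lower by less than 1.5-fold and not called (-0.53, limma adjusted P = 0.142). NLRP3, the inflammasome sensor gene, was lower under 79 (-0.61, limma adjusted P = 0.0213). CASP1 and NLRP3 were the 2 of 12 genes called under 79, where 7.95% of all genes were called. Under 87, 1 of the 12 was called, against 5.13% of all genes, and under 86, 0 were, against 3.6%. In the libraries labelled U11 knockout 1 of the 12 was called, where 11.8% of all genes were. This was GSDMD, the pore protein gene, which was lower but did not pass an adjusted P under 0.05 (-0.77, limma adjusted P = 0.092). CASP1 was at 4.94 and 4.76 TPM there against 6.35 and 5.75 TPM.

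Genes known to be induced by interleukin 1 formed a list of 24. IRAK2 was on this list and on that of the signal genes, so its call in the knockout comparison counts in both. In the libraries labelled U11 knockout, 19 could be tested, of which 12 were called lower and 1 higher, against 11.8% of all genes called. By sign alone 15 were lower and 4 higher, with a median log2 fold change of -0.69 against 0.11 over all genes, and 10 of the 13 called genes passed an adjusted P under 0.05 as well, which 6.85% of all genes did. CXCL8, a neutrophil chemokine gene, was at 62.3 and 64.9 TPM against 193 and 258 TPM (log2 fold change -1.79, limma adjusted P = 0.0127). CXCL1 was at 102 and 108 TPM against 353 and 367 TPM (-1.77, limma adjusted P = 0.0047), and ICAM1 (-1.28) and NFKBIA (-0.87) fell as well. CSF2 (-1.45) and BCL2A1 (-0.63) met the minimum only through the controls, where they were high, and without them 10 were called lower and 1 higher of 17. The gene called higher was PTGS2, which encodes cyclooxygenase 2, at 6.33 and 6.18 TPM against 3.07 and 3.69 TPM (0.73, limma adjusted P = 0.0448).

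Under line label 79, where IL1A and IL1B were likewise lower than in controls, 4 chemokine genes of the list, CXCL8, CXCL1, CXCL2 and CXCL3, were higher. CXCL8 was at 327 and 301 TPM against 111 and 104 TPM in the controls (log2 fold change 1.54, limma adjusted P = 6.83e-04), and CXCL1 (0.92), CXCL2 (0.82), CXCL3 (1.25), PTGS2 (1.27) and the survival gene BCL2A1 (2.30) rose with it. LIF (-0.89) and BIRC3 (-1.31) fell. The chemokine genes CCL2 and CCL20 did not meet the minimum. In all, 7 of the 20 genes tested were called higher and 2 lower, against 7.95% of all genes called, and by sign 12 were higher and 8 lower. The median was 0.15 against -0.03 over all genes, or 0.02 without MMP1 and MMP3, which met the minimum only through the libraries of line label 87. Whether the list differed between the knockout label and line label 79 was not tested.

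Under line labels 86 and 87, where IL1A and IL1B were higher, 6 genes of the list were called higher and 1 lower under 86, against 3.6% of all genes called, and 8 higher and 1 lower under 87, against 5.13%. The medians were 0.41 and 0.56 against 0.01 and -0.01 over all genes. Without MMP1 and MMP3, 6 were called higher and 1 lower under 87. CXCL8 was at 212 and 256 TPM under 86 (1.11, limma adjusted P = 0.00657) and at 329 and 350 TPM under 87 (1.65, limma adjusted P = 7.74e-04). BCL2A1 was called higher under both (1.53 and 1.73). TNFAIP3, which encodes a brake on NF-kappa B, was lower under 86 (-0.60) and higher under 87 (0.63), and LIF was higher under 86 (0.63) and lower under 87 (-0.72). The 3 line labels share their controls. With the line labels pooled, 7 of the 20 genes were called higher and 0 lower, against 1.93% of all genes called, and 6 higher without MMP1 and MMP3. By sign 16 were higher and 4 lower.

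**Figure D4:**
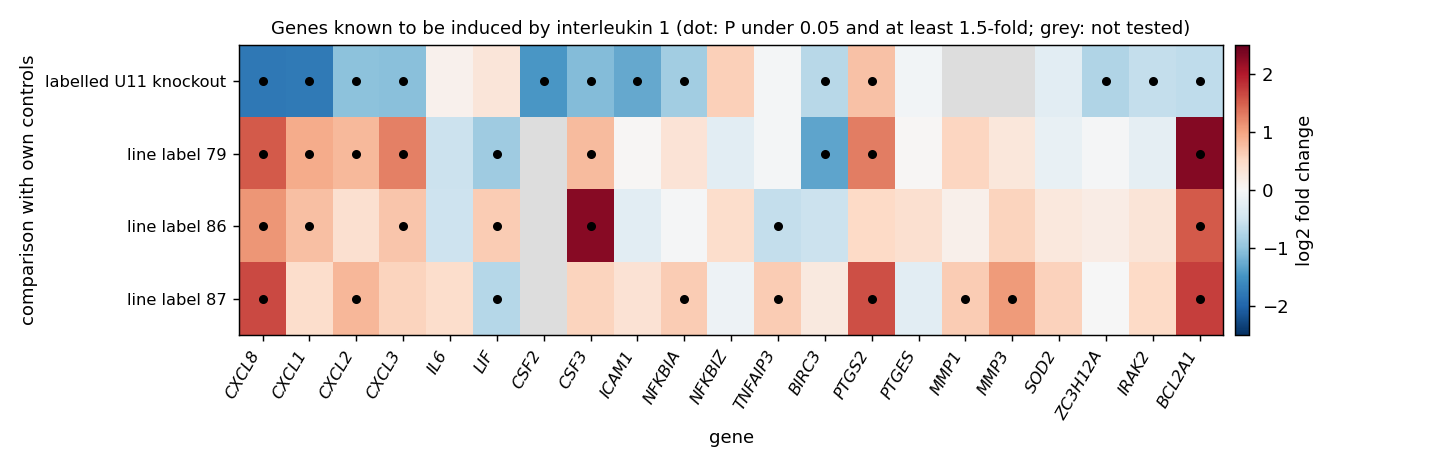
Log2 fold change of TPM + 1 against own controls for 21 genes known to be induced by interleukin 1 that could be tested in at least 1 comparison, with red for higher, blue for lower, grey for not tested and dots for P under 0.05 with at least 1.5-fold. CXCL8, CXCL1, CXCL2 and CXCL3 were blue in the libraries labelled U11 knockout and red under line label 79.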

How the data were processed

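The study sequenced RNA from T24 cells as paired reads, aligned it to hg38 with Hisat2 and quantified it with Stringtie in each library. Its methods name depletion of ribosomal RNA, whereas the labels name polyA RNA, and the strand setting is not given in the sources used here. The authors deposited, for each gene, TPM, FPKM and coverage (the mean read depth over the gene), and no read counts were used here. Groups, line labels and title prefixes were taken from the sample titles and treatment labels. Each file held a single sample, and entries were joined by gene identifier.

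TPM values were tested with limma 3.58.1 in R 4.3.3 on log2(TPM + 1), two-sided and with a mean-variance trend, after a minimum of 1 TPM in 2 of the libraries compared. A fold change is therefore on the log2(TPM + 1) scale and understates the change of low genes. Genes were called at P under 0.05 with a fold change of at least 1.5, the thresholds of the study, and Benjamini-Hochberg adjusted P was taken over all genes tested. DESeq2, which the authors used, was not run, as it needs counts. The number of reads behind a value is not known, and no counting interval is given; the deposited coverage gives the depth. Line labels were fitted as 4 groups of 2 libraries. The named genes were all 8 members, genes of the lists called in a comparison, and the 3 genes most like a member. The members and lists were chosen with earlier results of these data known. Alternatives were a pseudocount of 0.1, FPKM, 2 scalings, 2 filters, no trend and a block. The block was the replicate number in the knockout comparison and the title set in the overexpression comparison. An adjusted threshold, the mean of each line label and leaving out each library were alternatives too. Leaving out a line label, using a title set alone and the neighbours of IL1A and IL1B were added after seeing the data. The fits were tested on simulated data. Promoters came from a RefSeq table (GRCh38.p14), in which 7 of the 8 genes had an entry, with 250 bases taken before each start.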

Additional observations from a re-analysis of the deposited data

Results flagged for a closer look

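Each of the 6 testable genes differed between the line labels of the overexpression libraries by the F test of limma, which 16% of all genes tested passed. The largest log2 difference between any 2 line labels was -2.64 for IL1A (line label 79 minus 87, adjusted P = 2.04e-04) and -2.44 for IL1B (79 minus 86, adjusted P = 6.66e-05). For IL33 it was 2.84 (79 minus 86, adjusted P = 4.56e-04) and for IL1R1 1.26 (79 minus 86, adjusted P = 0.00705). IL18 (-0.54, 79 minus 87, adjusted P = 0.00828) and IL1RAP (0.54, 79 minus 87, adjusted P = 0.0238) passed the test at under 1.5-fold. IL33 and IL1R1 entered the test through the libraries of line label 79 alone. No group held enough libraries to look for a single library standing apart, except the 6 overexpression libraries as a whole, in which no member had one.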

How the results depend on the processing

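Of 30 log2 fold changes of members, the 12 that were called kept their direction and their call under every alternative in which the gene could be tested. Fewer members were called where IL33 and IL1R1 no longer met the minimum. In the F test, members that could still be tested also stopped passing when a library of line label 79 was left out. With 1 TPM required in every library it was 2 in the knockout comparison and 2 under line label 79, and leaving out single libraries gave 2 to 4 in the knockout comparison (2 without knockout replicate 1 or 2), 2 to 4 under line label 79 (2 without its replicate 1 or 3) and 2 to 6 in the F test (2 without line label 79 replicate 1, 3 without its replicate 3). Pooled overexpression gave 2 members called without line label 79, IL1A at 1.43 and IL1B at 1.10. Line label 79 was the label under which both were lower, so these calls follow from its removal.

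Uncalled values of the pooled overexpression comparison changed sign. IL1B became -0.12 without line label 86. IL18, which ran from -0.09 to 0.04 when a library was left out, became 0.04 or 0.03 without either library of line label 79, 0.03 without control replicate 4, 0.14 without line label 79 and 0.05 in title set R17018. IL1RAP became -0.02 without line label 79. IL33 under line label 86 became 0.00 in title set R18019.

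Counts over all genes moved more. In the knockout comparison 1688 genes became 984 with adjusted P. In the pooled comparison 304 became 173 with FPKM, 175 with 1 TPM in every library, 489 without line label 86 and 26 with adjusted P. Under line label 79, 1254 became 790 with FPKM. Under 86, 568 became 322 with FPKM, 370 with the stricter filter and 216 with adjusted P, and under 87, 809 became 456, 503 and 418. The F test went from 2530 to 1356 with no filter and 4816 with unadjusted P, and to 1222 to 2050 when a library was left out (1593 or fewer without any library of a line label). The causes were not tested, beyond the smaller number of genes that a stricter filter tests.

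Replicate numbers did not pair the samples by the labels. Deviations of same-numbered libraries correlated at 0.02 for knockout and control libraries. In the overexpression comparison libraries were matched by title set, not by number, and deviations correlated at 0.07 to 0.15 among the groups. The block was likewise the replicate number in the knockout comparison and the title set in the overexpression comparison. With it the counts of genes called were 1706 (knockout), 284 (pooled), 1252 (line label 79), 567 (86), 807 (87) and 3074 (F test), and no call of a member changed. Groups of 2 libraries and the low read depth over IL1R1 limit the precision of these values.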
